A study of Mus musculus with 20 samples.

Results

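Dazl, Cpeb1, Cpeb4 and Papd4 encode 4 regulators that help decide when stored mRNAs are translated in the oocyte. They were chosen by symbol, and each had 1 row among the 7543 genes measured on ribosomes and 1 among the 7917 measured in total RNA; 7346 genes were measured in both. CPEB proteins bind the cytoplasmic polyadenylation element (CPE), a U-rich stretch in the 3′ UTR. CPEB1 holds such mRNAs silent in the arrested oocyte and, once phosphorylated, helps to lengthen their poly(A) tails, after which much of it is degraded; in Xenopus oocytes CPEB4 is made during maturation and takes over its role at the later division. PAPD4 (also GLD2 or TENT2) is a cytoplasmic poly(A) polymerase that has been found with CPEB1 in Xenopus oocytes, and DAZL is a germ-cell RNA-binding protein that promotes translation of its target mRNAs. Because a fully grown oocyte makes almost no new RNA, these transcripts can move onto or off ribosomes without a matching change in their amount.

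The oocytes came from 3-week-old C57BL/6 females given 5 IU of PMSG and taken 44 h later. All of the mice carried Zp3-Cre and RiboTag, so that ribosomes of cells in which the Zp3 promoter had been active, which are growing oocytes, carry an HA-tagged protein. Cumulus cells were removed by pipetting and the oocytes were held in prophase I with 1 µM cilostamide, a phosphodiesterase inhibitor, then released from it. There were 5 ribosome-bound groups (RNA recovered with the tagged ribosomes) and 5 total RNA groups, each at 0 h (prophase I), 2 h, 4 h and 6 h (early, mid and late prometaphase I) and 8 h (metaphase I), with 200 oocytes per sample and 2 libraries, A and B, per group. Whether A and B came from separate cultures is not in the labels, and p-values therefore reflect only how far these samples spread.

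Values are the authors' scaled CPM, which are reads of a gene relative to the depth of its library, and the depth inferred from their steps was 27571236 to 51714900 reads in listed genes per library. Across genes, Pearson's r between replicates was 0.949 to 0.974. On the second principal component, the 4 h ribosome-bound library A had a score of -35.2, against -4.88 for the library nearest to it, and the total RNA libraries of 8 h lay at 20.2 (A) and -25.0 (B). Oocyte markers were present on ribosomes for 11 of 11 genes. At 8 h against 0 h, 9 of them fell and 1, Oosp1, rose, beside 42.1% of all genes called. The 11 markers summed to between 21541 and 24900.2 at 8 h, against 40308 to 48824 at 0 h. Of 17 granulosa and cumulus markers, 4 had a row on ribosomes (Serpine2, Cyp19a1, Nr5a2 and Fshr). They summed to 524 to 529 at 8 h, against 199 to 207 at 0 h, and Serpine2 alone had 368 to 371 and 96.1 to 125. This sum moved in the same direction as Dazl, Cpeb4 and Papd4, and the oocyte marker sum in that of Cpeb1. The part of either set of markers in those results was not tested. Of the 4 markers, Serpine2 (1.74 ± 0.17, adjusted p 4.49e-07) and Cyp19a1 (1.31 ± 0.23, adjusted p 0.000189) passed the limma test given with the results, as log2 changes. Nr5a2 (0.27 ± 0.29, adjusted p 0.471) and Fshr (0.61 ± 0.44, adjusted p 0.28) did not pass it, where 42.1% of all genes passed. In total RNA 6 of the 17 had a row and summed to 428 to 550 at 8 h, against 324 to 389 at 0 h. Only Serpine2 passed there in limma (0.78 ± 0.15, adjusted p 0.00498), beside 3.97% of all genes, and the median log2 change of the 6 was -0.09. The oocyte markers in total RNA summed to 14491.5 to 15322 at 8 h, against 13942 to 14431.5 at 0 h. The granulosa genes Amh, Foxl2 and Fst and the cumulus genes Has2, Ptgs2, Ptx3, Tnfaip6 and Areg had no row in either table used here. Of 11 blood, stroma and endothelium markers 2 had a row, Pecam1 and Tek, which summed to 106 to 162 on ribosomes at 8 h, against 155 to 189 at 0 h.

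The 4 genes lie on different chromosomes of the mm10 assembly. Dazl (ENSMUSG00000010592.8) is at chr17:50279395-50293636, Cpeb1 (ENSMUSG00000025586.17) at chr7:81347026-81455465 and Papd4 (ENSMUSG00000042167.5, named Tent2 in GENCODE) at chr13:93146282-93192385, all on the minus strand. Cpeb4 (ENSMUSG00000020300.14) is at chr11:31872211-31935634 on the plus strand. All are protein coding, and none shares exonic bases with another annotated gene on either strand. The stretch around the poly(A) signal nearest the transcript end is shown for the longest annotated 3′ UTR of Dazl, Cpeb4 and Papd4 in the GENCODE M21 transcripts, because CPEB acts on mRNAs that hold this signal and a CPE near it, with the signal AATAAA in capitals:
Dazl (chr17:50279400-50279429, minus strand): cttgtatacacgAATAAAacctttttttca
Cpeb4 (chr11:31935604-31935633, plus strand): agatgttgaatgAATAAAacttttaactca
Papd4 (chr13:93146283-93146312, minus strand): gctgtcaaatggAATAAAgtttatatctgg

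The CPE nearest upstream of that signal, either TTTTAT or the variant TTTTAAT, is shown in capitals because it is the letter string that CPEB proteins bind. In Cpeb4 it overlaps a variant poly(A) signal, ATTAAA, and the capitals mark both:
Dazl (chr17:50279752-50279781, minus strand): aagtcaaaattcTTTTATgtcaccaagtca
Cpeb1 (chr7:81347257-81347286, minus strand): cttgacttttctTTTTAATttaacgattac
Cpeb4 (chr11:31935406-31935435, plus strand): gggtaattcattTTTTATTAAAgtcatttt
Papd4 (chr13:93146796-93146825, minus strand): ctgttttcctggTTTTATtttcctcatgat

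Each of the 4 transcripts had AATAAA within its last 100 bases, as did 66.9% of the 7539 listed genes whose longest 3′ UTR has at least 100 bases. None had TTTTAT or TTTTAAT in that window, where 16.4% and 6.01% of genes have one. The nearest CPE began 352 bases before the start of the signal in Dazl, 198 in Cpeb4 and 513 in Papd4. These distances are to the last AATAAA alone. AATAAA occurred 2 times in the 3′ UTR of Dazl, 6 in Cpeb4 and 5 in Papd4, and occurs in 84.2% of all 3′ UTRs. In Cpeb4 a copy began 1860 bases before the transcript end, with TTTTAAT beginning at 1864. In Papd4 a copy began at 1146, with TTTTAT beginning at 1165. Over the whole 3′ UTR, Dazl (1854 bases) held 5 copies of TTTTAT and 1 of TTTTAAT, and Cpeb1 (1315 bases) held 2 of each. Cpeb4, with a 3′ UTR of 4102 bases that is longer than that of 90.9% of the 7745 genes, held 11 and 6. Papd4 (1309 bases) held 3 and 1. TTTTAT occurs somewhere in 62.4% of all 3′ UTRs and TTTTAAT in 35.6%, so their presence alone does not set the 4 genes apart.

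TTTGTT, which contains the GTT triplet recognised by DAZL, was present 3 times in Dazl, 1 time in Cpeb1, 9 times in Cpeb4 and 2 times in Papd4, and occurs in 61.8% of all 3′ UTRs. The copy in Papd4 was the only one in the last 100 bases, where 12.6% of genes have one. TGTANATA, the element bound by Pumilio repressors, occurred 1 time in each of Cpeb1 and Papd4 and not in Dazl or Cpeb4, against 30.1% of all 3′ UTRs. ATTAAA was present 2 times in Dazl and in Cpeb1, 7 times in Cpeb4 and 1 time in Papd4, and occurs in 55.2% of all 3′ UTRs. The motifs were searched on the transcript strand alone, a match is a string of letters and not a shown binding site, and which 3′ end the oocyte uses was not measured.

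**Figure D1:**
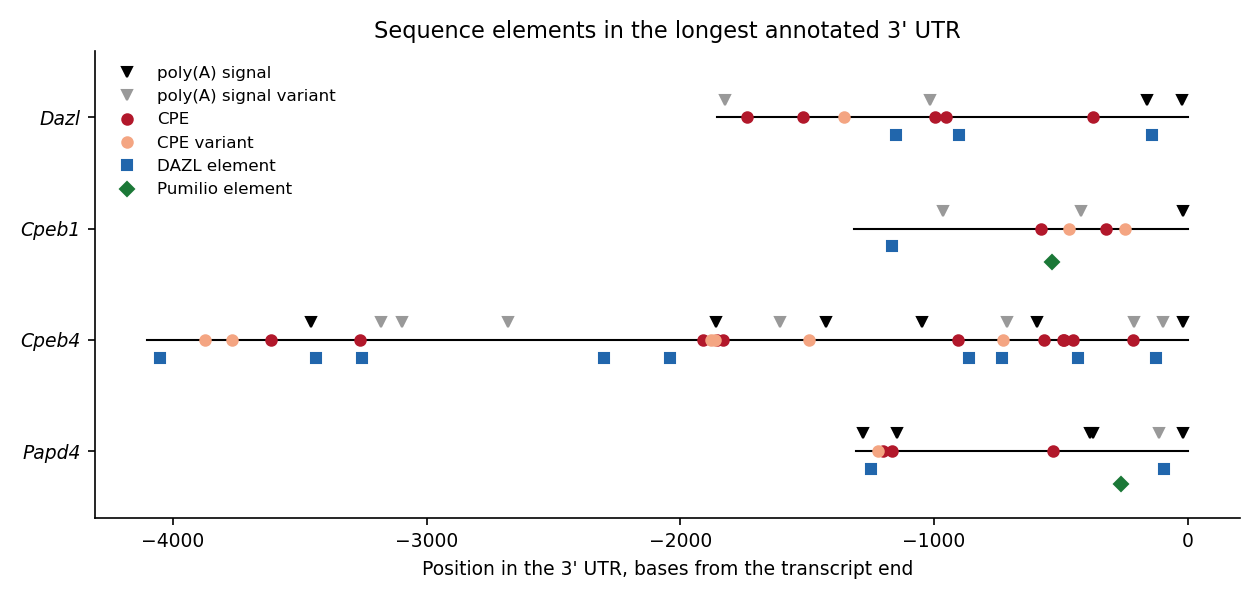
Positions of the searched elements along the longest annotated 3′ UTR of each gene, in bases before the transcript end (0), with 1 row per gene and 1 symbol per match. The last black triangle of each row, AATAAA, lies within the last 100 bases, while the red and orange circles, TTTTAT and TTTTAAT, all lie farther upstream. Grey triangles mark ATTAAA, blue squares TTTGTT and green diamonds TGTANATA.

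On ribosomes the 4 transcripts moved in opposite directions between prophase I and metaphase I. Dazl, Cpeb4 and Papd4 rose and Cpeb1 fell, and each of the 4 passed the test at 8 h against 0 h. The test was limma on log2(value + 1) over all genes, with a Benjamini-Hochberg adjusted p of 0.05, and 42.1% of all genes passed in that comparison, so passing does not by itself set these genes apart. The median change of all genes was -0.06. The error given with a log2 change is its standard error from limma (n = 2 per time), and each time was set against the same 0 h libraries. The values are shares of a library, so fewer transcripts per oocyte and fewer on ribosomes cannot be told apart in the ribosome-bound samples alone.

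Dazl, the germ-cell translational activator, was higher on ribosomes at each later time. Its ribosome-bound level was 163 and 154 scaled CPM in the 2 libraries at 0 h, 182 and 185 at 2 h, 280.4 and 316 at 4 h, 428 and 529 at 6 h, and 573 and 596 at 8 h. The libraries of each time lay above both libraries of the time before, and no times overlapped. The log2 change from 0 h was 0.21 ± 0.15 at 2 h (adjusted p 0.506), 0.91 ± 0.15 at 4 h (adjusted p 0.000589), 1.58 ± 0.15 at 6 h (adjusted p 8.44e-07) and 1.88 ± 0.15 at 8 h (adjusted p 5.8e-08). The last is a 3.68-fold higher value, averaging 585 ± 16.1 at 8 h and 158 ± 6.29 at 0 h (SD, n = 2 each). In every alternative and with any 1 library left out, the changes at 4, 6 and 8 h passed.

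Cpeb1, the founding CPE-binding protein, had the highest level per kb of the 4 and fell at 8 h. Its ribosome-bound level was 1944 and 2039.6 scaled CPM at 0 h, 2284 and 2425 at 2 h, 2489 and 1901 at 4 h, 1496 and 1661 at 6 h, and 1338 and 1206 at 8 h. The libraries of 6 h and 8 h lay below all earlier ones, and those of 4 h spanned the levels of 0 h and 2 h. The log2 change from 0 h was 0.24 ± 0.14 at 2 h (adjusted p 0.399), 0.13 ± 0.14 at 4 h (adjusted p 0.582), -0.34 ± 0.14 at 6 h (adjusted p 0.0805) and -0.65 ± 0.14 at 8 h (adjusted p 0.00127). At 8 h it averaged 1272 ± 93.1, against 1992 ± 67.9 at 0 h, or 0.638 of the 0 h level. Without the 4 h library that stood apart, the 4 h change was -0.07.

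Cpeb4, the CPEB family member that acts late in Xenopus meiosis, rose on ribosomes at 6 h and 8 h. Its ribosome-bound level was 61.5 and 84.9 scaled CPM at 0 h, 95.7 and 80.5 at 2 h, 67.8 and 80.4 at 4 h, 103 and 113 at 6 h, and 147 and 169.9 at 8 h. The levels of 0, 2 and 4 h lay close together, and both 6 h and both 8 h libraries were above them. The log2 change from 0 h was 0.28 ± 0.21 at 2 h (adjusted p 0.543), 0.03 ± 0.21 at 4 h (adjusted p 0.942), 0.57 ± 0.21 at 6 h (adjusted p 0.0457) and 1.12 ± 0.21 at 8 h (adjusted p 0.000357), the last a 2.17-fold higher value. The call at 6 h was lost without 0 h library A (0.35, adjusted p 0.281), without 6 h library A (0.64, adjusted p 0.107) or without 6 h library B (0.51, adjusted p 0.202), whereas that at 8 h held in each case run.

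Papd4, the cytoplasmic poly(A) polymerase, rose at 4 h and stood at a similar raised level at 6 h and 8 h. Its ribosome-bound level was 17.4 and 30.1 scaled CPM at 0 h, 22.6 and 31.5 at 2 h, 41.3 and 47.7 at 4 h, 71.8 and 73.0 at 6 h, and 72.5 and 71.6 at 8 h. The 0 h and 2 h libraries overlapped, those of 4 h lay above them, and the 6 h and 8 h libraries overlapped at a higher level. The log2 change from 0 h was 0.21 ± 0.28 at 2 h (adjusted p 0.756), 0.92 ± 0.28 at 4 h (adjusted p 0.032), 1.62 ± 0.28 at 6 h (adjusted p 0.000371) and 1.61 ± 0.28 at 8 h (adjusted p 0.000199), the last a 3.05-fold higher value. The 2 libraries of 0 h differed most, with an SD of 37.9% of their mean. The 4 h call was lost without 0 h library A (0.54, adjusted p 0.234), without 4 h library A (1.03, adjusted p 0.0961) or without 4 h library B (0.82, adjusted p 0.121).

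**Figure D2:**
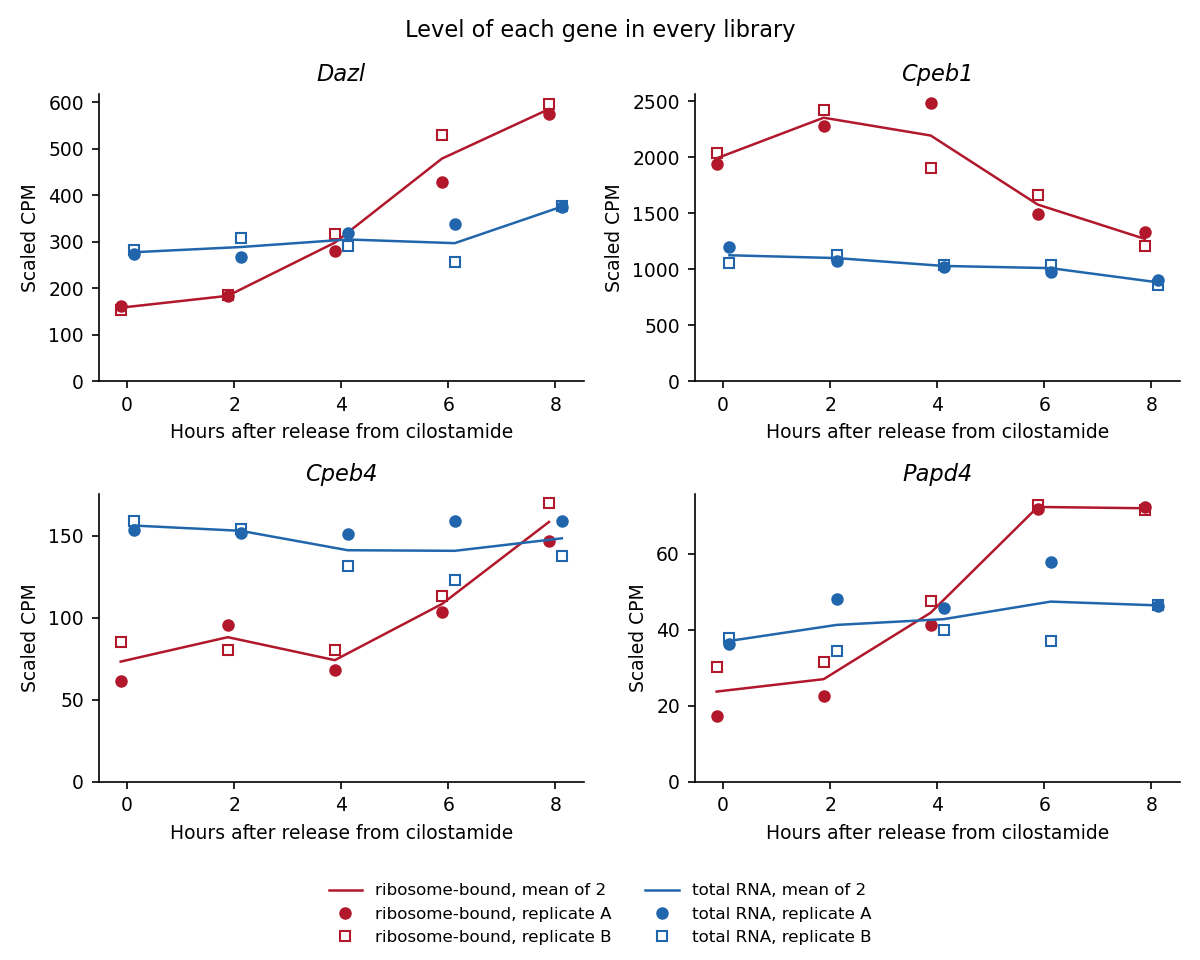
Scaled CPM of each gene (y axis, from 0, with its own scale per gene) in every library against hours after release from cilostamide, with ribosome-bound libraries in red and total RNA libraries in blue, filled circles for replicate A, open squares for replicate B and lines through the mean of 2. On ribosomes Dazl, Cpeb4 and Papd4 end above their 0 h libraries and Cpeb1 below, while the blue points stay within a narrower range.

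The order in which the genes passed was Dazl and Papd4 at 4 h, Cpeb4 at 6 h and Cpeb1 at 8 h. At 2 h none of the 4 passed, with none at an unadjusted p under 0.05 in limma either, and 1.47% of all genes passed. Of all 7543 genes, 1295 had an unadjusted p under 0.05 in limma at 2 h. At 4 h 2 of the 4 passed, against 15.7% of all genes, and at 6 h 3 of the 4, against 27.9%. Without the 4 h library that stood apart, 461 genes passed at 4 h in place of 1186. Dazl then stood at 0.99 (adjusted p 0.00507) and Cpeb4 at 0.15, and Papd4, at 1.03, did not pass. Passing earlier does not show that a gene moved earlier, since the genes differ in their error.

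Between neighbouring times after 2 h, 1 of the 12 steps of the 4 genes passed, beside none of the 4 at 2 h against 0 h given above. Dazl rose by 0.69 ± 0.15 on the log2 scale at 4 h against 2 h (adjusted p 0.0389), where 0.729% of all genes passed, and this call was lost without any 1 of the 4 libraries compared (adjusted p 0.112 to 0.436). Dazl changed by 0.68 ± 0.15 at 6 h against 4 h (adjusted p 0.103), a step at which 0.0663% of genes passed, and by 0.30 ± 0.15 at 8 h against 6 h (adjusted p 0.417), where 0.689% passed. Papd4 changed by 0.71 ± 0.28, 0.69 ± 0.28 and -0.01 ± 0.28 in the same 3 steps (adjusted p 0.333, 0.357 and 0.996). Cpeb1 changed by -0.11 ± 0.14, -0.46 ± 0.14 and -0.31 ± 0.14 (adjusted p 0.838, 0.223 and 0.348). Cpeb4 changed by -0.25 ± 0.21, 0.54 ± 0.21 and 0.54 ± 0.21 (adjusted p 0.721, 0.322 and 0.253).

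In total RNA, none of the 4 genes passed the test at any time. This comparison asks whether the share of each transcript in total RNA changed beside its presence on ribosomes. These values are also shares of a library, so the amount per oocyte was not measured. The share of all genes that passed was 0% at 2 h and at 4 h, 0.202% at 6 h and 3.97% at 8 h. At an unadjusted p under 0.05 in limma, none of the 4 was below it at 2, 4 or 6 h and 2 were at 8 h. Of all 7917 genes, 226 were below it at 2 h, 347 at 4 h, 613 at 6 h and 1478 at 8 h.

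Dazl in total RNA was 273 and 281 scaled CPM at 0 h, 268 and 309 at 2 h, 319 and 290.3 at 4 h, 338 and 256 at 6 h, and 374 and 377 at 8 h. The 8 h libraries were the 2 highest of the 10, and among the earlier times both 4 h libraries lay above both of 0 h, while the others overlapped. The log2 change at 8 h was 0.44 ± 0.15 (unadjusted p 0.00839, adjusted p 0.112 in limma), with a 95% interval of 0.13 to 0.75. Cpeb1 in total RNA was 1198 and 1054 at 0 h, 1073 and 1128 at 2 h, 1021 and 1041 at 4 h, 979 and 1043 at 6 h, and 909 and 859 at 8 h. The 8 h libraries were the 2 lowest of the 10. The log2 change at 8 h was -0.35 ± 0.11 (unadjusted p 0.00551, adjusted p 0.0906 in limma), with a 95% interval of -0.58 to -0.11.

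Cpeb4 in total RNA was 153 and 159 scaled CPM at 0 h, 152 and 154 at 2 h, 151 and 131 at 4 h, 159 and 123 at 6 h, and 159 and 138 at 8 h. The libraries of 8 h overlapped those of every other time, and the change at 8 h was -0.08 ± 0.17 on the log2 scale (adjusted p 0.856, 95% interval -0.43 to 0.28). It was 0.03 without 8 h library B, where the 2 libraries of that time lay apart from each other. Papd4 in total RNA was 36.2 and 38.0 at 0 h, 48.2 and 34.4 at 2 h, 45.7 and 39.9 at 4 h, 57.8 and 37.1 at 6 h, and 46.3 and 46.6 at 8 h. Both libraries of 8 h lay above both of 0 h and both of 4 h, and within the range of 2 h and that of 6 h. The change at 8 h was 0.32 ± 0.26 (adjusted p 0.551, 95% interval -0.23 to 0.86). Without the 8 h library A or B, which lay apart, the change was 0.44 or 0.43 for Dazl, -0.39 or -0.30 for Cpeb1 and 0.32 or 0.31 for Papd4. The intervals leave room for changes of a size that the test could not call here.

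The change on ribosomes went beyond the change in total RNA for Dazl, Cpeb4 and Papd4 but not detectably for Cpeb1. This difference of changes was tested by an interaction term in a joint fit of both tables. At 8 h it was 1.44 ± 0.21 for Dazl (adjusted p 2.26e-05), 1.19 ± 0.26 for Cpeb4 (adjusted p 0.00198) and 1.29 ± 0.39 for Papd4 (adjusted p 0.0191) on the log2 scale, and 21% of the 7346 genes in both tables passed. For Cpeb1 it was -0.30 ± 0.17 (adjusted p 0.227), with a 95% interval of -0.66 to 0.06, so its fall on ribosomes was not shown to exceed its change in total RNA. The call for Papd4 was lost without 0 h ribosome-bound library A (0.91, adjusted p 0.107), without 0 h total RNA library B (1.26, adjusted p 0.0553) and without 8 h ribosome-bound library B (1.30, adjusted p 0.0514). Without either of the 8 h total RNA libraries that lay apart, the calls for Dazl, Cpeb4 and Papd4 held.

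At earlier times the difference of changes passed for Dazl at 4 h (0.77 ± 0.21, adjusted p 0.0286) and 6 h (1.499 ± 0.21, adjusted p 2.94e-05) and for Papd4 at 6 h (1.30 ± 0.39, adjusted p 0.0281). Cpeb4 stood at 0.74 ± 0.26 at 6 h (adjusted p 0.0704), or 0.97 without 0 h ribosome-bound library B, which did pass (adjusted p 0.0218). The share of all genes that passed was 0.0953% at 2 h, where none of the 4 did, 5.1% at 4 h and 11.7% at 6 h. The Dazl call at 4 h was lost without any 1 of 6 of the 8 libraries compared (adjusted p 0.056 to 0.121), all but 0 h ribosome-bound A and the 4 h ribosome-bound A that stood apart (0.86, adjusted p 0.0428). The Papd4 call at 6 h was lost without any 1 of 6 of the 8 (adjusted p 0.0713 to 0.143), all but 0 h ribosome-bound B and 6 h total RNA A.

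**Figure D3:**
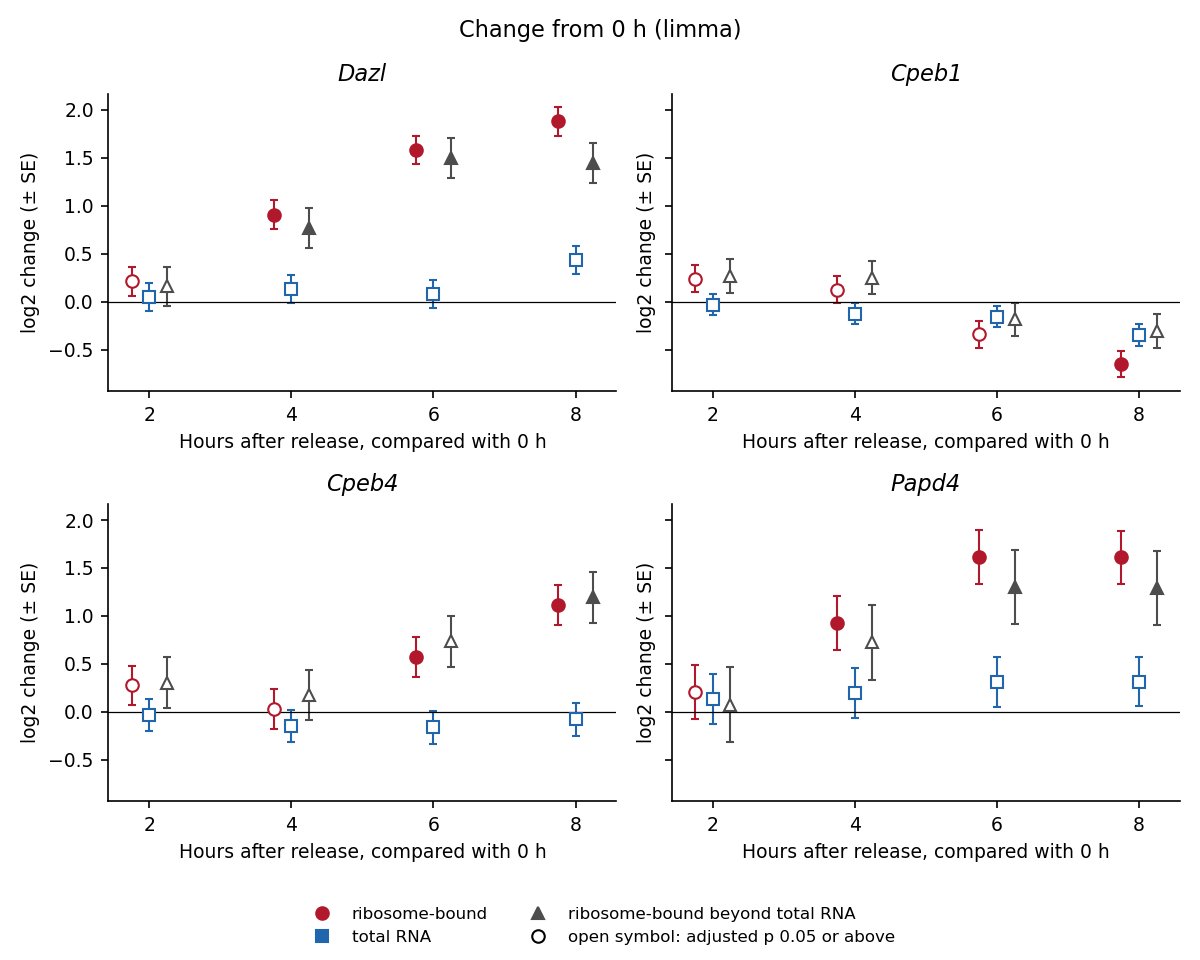
Log2 change from 0 h (y axis) at 2, 4, 6 and 8 h for each gene, on ribosomes (red circles), in total RNA (blue squares) and on ribosomes beyond total RNA (grey triangles), with limma standard errors as bars and open symbols where the adjusted p was 0.05 or above. All blue squares are open, whereas the red circles of Dazl and Papd4 are filled from 4 h, that of Cpeb4 from 6 h and that of Cpeb1 at 8 h.

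Set against each other within a library, the 3 rising transcripts gained on Cpeb1, and such a ratio needs no scaling between libraries. For every 100 scaled CPM of Cpeb1 on ribosomes, Dazl had 8.37 and 7.54 at 0 h, 7.99 and 7.63 at 2 h, 11.3 and 16.6 at 4 h, 28.6 and 31.8 at 6 h, and 42.9 and 49.4 at 8 h. In total RNA the same ratio was 22.8 and 26.7 at 0 h and 41.1 and 43.9 at 8 h. Dazl was thus lower relative to Cpeb1 on ribosomes than in total RNA at 0 h, and the ranges of the 2 kinds of RNA overlapped at 8 h.

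The same ratio for Cpeb4 on ribosomes was 3.16 and 4.16 at 0 h, 2.72 and 4.23 at 4 h, 6.90 and 6.82 at 6 h, and 10.96 and 14.1 at 8 h. In total RNA it was 12.8 and 15.1 at 0 h and 17.5 and 16.02 at 8 h, above the ribosome-bound libraries at both times. For Papd4 it was 0.895 and 1.48 on ribosomes at 0 h, 1.66 and 2.51 at 4 h, 4.80 and 4.40 at 6 h, and 5.42 and 5.94 at 8 h. In total RNA it was 3.02 and 3.604 at 0 h and 5.10 and 5.42 at 8 h. These ratios are a description and were not tested apart from the changes above.

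**Figure D4:**
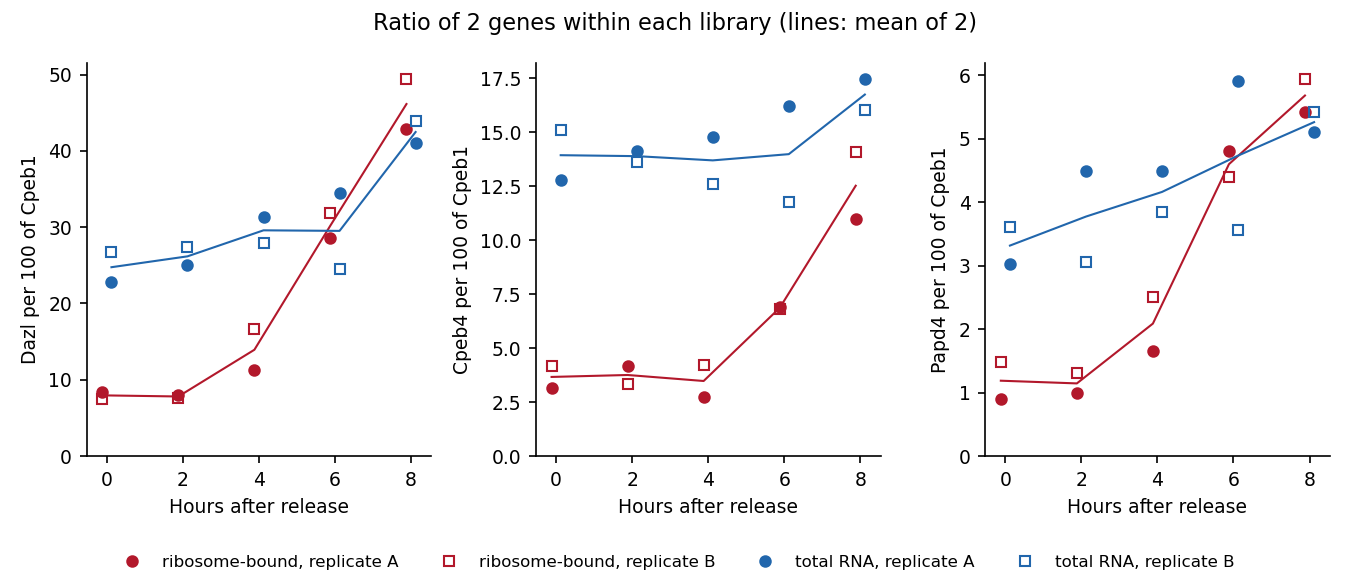
Dazl, Cpeb4 and Papd4 per 100 of Cpeb1 (y axes, from 0) within each ribosome-bound (red) and total RNA (blue) library against hours after release, with filled circles for replicate A, open squares for B and lines through the mean of 2. The ribosome-bound ratio of Dazl is 42.9 and 49.4 at 8 h, against 8.37 and 7.54 at 0 h.

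Per kb of annotated exon, Cpeb1 was the most abundant of the 4 on ribosomes at every time and Dazl the next. At 8 h Cpeb1 had 303 ± 22.2 scaled CPM per kb (SD, n = 2), Dazl 153 ± 4.22, Cpeb4 24.8 ± 2.58 and Papd4 17.3 ± 0.144. At 0 h the levels per kb were 475 ± 16.2 for Cpeb1, 41.4 ± 1.65 for Dazl, 11.5 ± 2.60 for Cpeb4 and 5.70 ± 2.16 for Papd4. Cpeb4 and Papd4 did not differ beyond their spread at 4 h (11.6 ± 1.39 and 10.7 ± 1.08) or at 6 h (17.003 ± 1.12 and 17.3 ± 0.213). Among all genes of the table, Cpeb1 lay above 98.8% at 8 h and 99.3% at 0 h, Dazl above 97.2% and 85.9%, Cpeb4 above 77.0% and 55.7%, and Papd4 above 68.7% and 34.0%.

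A ratio of ribosome-bound to total RNA at a single time is set by how the 2 tables were scaled, so each gene was placed among the 7346 genes of the same pair of libraries. Libraries were paired by time and letter, and whether the same letter marks the same oocytes in both kinds of RNA was not established. At 8 h Dazl had a higher ratio than 87.5% (A) and 87.8% (B) of genes, against 23.3% and 18.3% at 0 h. Papd4 lay above 88.0% and 86.3% at 8 h, against 13.8% and 43.4% at 0 h. Cpeb4 lay above 55.2% and 75.4% at 8 h, against 6.59% and 17.2% at 0 h. Cpeb1 lay above 85.5% and 82.5% at 8 h, against 86.6% and 92.9% at 0 h, and above 97.5% and 97.7% at 2 h. At the end of the series Dazl, Papd4 and Cpeb1 therefore had similar places, which they did not have at the start.

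Some genes had ribosome-bound profiles very like those of the 4, measured as the root-mean-square difference of the centred log2 values over the 10 libraries. Nearest to Dazl were Pan2 (0.106), a deadenylase subunit, Mansc1 (0.117) and the histone demethylase gene Kdm6a (0.118), where the median of 5320 genes was 0.791. Pan2 averaged 562 at 8 h and 153 at 0 h, and Kdm6a 1103 at 8 h and 295 at 0 h. Nearest to Cpeb1 were C87977 (0.0855), the cohesion gene Cdca5 (0.109) and Oog4 (0.111), with a median of 0.458. Cdca5 averaged 295 at 8 h and 495 at 0 h.

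Nearest to Cpeb4 were the topoisomerase gene Top1 (0.124), the ubiquitin ligase gene Siah2 (0.129) and Sptlc1 (0.143), of sphingolipid synthesis, with a median of 0.529. Nearest to Papd4 were the RNA-binding protein gene Ewsr1 (0.144), Acsl3 (0.177), of fatty acid activation, and Sprtn (0.182), of DNA-protein crosslink repair, with a median of 0.764. Among the 4 themselves, Dazl and Papd4 were the most alike (0.249), and Cpeb4 differed from Dazl by 0.477 and from Papd4 by 0.486. Cpeb1 differed from Dazl by 1.04, from Papd4 by 0.984 and from Cpeb4 by 0.746.

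The poly(A) tail machinery, a list that holds Cpeb1, Cpeb4 and Papd4, was called at about the share of all genes. Of 24 genes on it, 19 were measured on ribosomes; at 8 h against 0 h, 6 rose, 2 fell and 11 did not pass, with a median of 0.25 beside -0.06 for all genes, of which 42.1% passed (1525 of 7543 rose and 1648 fell). The risers included Papd4 and Cpeb4 from the 4, Cstf1, a subunit of the cleavage stimulation factor (1.36 ± 0.20, adjusted p 4.17e-05), the canonical polymerases Papolg (0.89 ± 0.15) and Papola (0.79 ± 0.14), and Papd7 (0.67 ± 0.14), another noncanonical polymerase. Cpeb1 and the cleavage factor subunit Cpsf1 (-1.24 ± 0.39, adjusted p 0.0174) fell, and the Cpsf1 call was lost without 0 h library A (-0.94, adjusted p 0.134) or without 8 h library A (-1.07, adjusted p 0.106). Another family member, Cpeb3, stood at 0.25 ± 0.20 (adjusted p 0.328), with 179.7 ± 48.0 scaled CPM at 8 h and 149 ± 17.2 at 0 h. Beyond total RNA, 4 of the 19 rose and Cpsf1 fell, beside 21% of all genes called in either direction (850 of 7346 rose and 693 fell). The Cpsf1 call was lost without any 1 of 4 libraries (ribosome-bound 0 h A and 8 h A, total RNA 0 h A and 8 h B). In total RNA none of 20 passed in limma.

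Among RNA-binding partners and repressors of CPEB and DAZL, a list that holds Dazl, the share called was also near that of all genes. Of 26 genes on that list, 22 were measured, and of these 4 rose and 7 fell on ribosomes at 8 h, beside 42.1% of all genes called, with a median of -0.23. Beside Dazl, the RNA-binding protein gene Msi2 (1.52 ± 0.31, adjusted p 0.000949), Lsm14a (0.81 ± 0.14, adjusted p 0.000236) and the Pumilio gene Pum2 (0.53 ± 0.19, adjusted p 0.0364) rose. Zar1l (-1.81 ± 0.29), the poly(A)-binding protein gene Pabpc1l (-1.79 ± 0.15) and Zar1 (-1.40 ± 0.16) fell most, and Zar1 and Zar1l bind maternal mRNAs. Msi2 was 66.8 ± 32.2 at 8 h and 21.3 ± 1.07 at 0 h, so that its 2 libraries of 8 h lay far apart. The Pum2 call was lost without 0 h library A (0.43, adjusted p 0.145), without 8 h library A (0.42, adjusted p 0.199) or without 8 h library B (0.64, adjusted p 0.0591). Beyond total RNA, 2 rose and 5 fell, beside 21% of all genes called. In total RNA, where 3.97% of all genes passed, 1 of 23 fell, Zar1l (-1.57 ± 0.19, adjusted p 9.85e-05).

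All measured members of a list of transcripts that earlier literature reports to hold CPEs or to be bound by DAZL rose on ribosomes. Of 14 genes on it, 13 were measured and 13 rose at 8 h, with a median of 1.88, beside 1525 of all 7543 genes that rose. At 4 h 9 of the 13 passed, beside 15.7% of all genes, and at 6 h 12, beside 27.9%. The list includes Dazl itself, and because it was written with earlier results of these data known, its direction is no independent evidence. Cyclin B1, Ccnb1, averaged 512 ± 53.1 at 8 h and 95.5 ± 10.7 at 0 h (2.41 ± 0.15, adjusted p 4.44e-09). Tex19.1, a germ-cell gene whose mRNA binds DAZL, averaged 201 ± 1.54 at 8 h and 38.8 ± 16.2 at 0 h (2.40 ± 0.24), and the plasminogen activator gene Plat 4629 ± 141 at 8 h and 1011 ± 259 at 0 h (2.22 ± 0.17). In total RNA 1 of the 13 rose at 8 h, Slbp (0.50 ± 0.14, adjusted p 0.0436), named because it was the only one, beside 3.97% of all genes called. That call was lost without 0 h library A, 0 h library B or 8 h library A. Beyond total RNA 12 of the 13 rose, beside 850 of 7346 genes that rose and 21% called in either direction.

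The next list holds genes for the kinases that act on CPEB1 and for its degradation. Of 15 genes on it, 13 were measured, and of these 4 rose and 6 fell on ribosomes at 8 h, beside 42.1% of all genes called, with a median of -0.40. Ccnb1, the MAPK activator Mos (1.76 ± 0.17, adjusted p 4.94e-07) and Map2k1 (1.24 ± 0.15, adjusted p 4.74e-06) rose most. Cdk1, the kinase partnered by cyclin B1 (-2.20 ± 0.22, adjusted p 9.04e-07), Rbx1, of the SCF ubiquitin ligase (-1.53 ± 0.30, adjusted p 0.000629), and the MAP kinase Mapk3 (-1.35 ± 0.15, adjusted p 2.98e-06) fell most. Cdk1 was 23.4 ± 6.70 at 8 h and 109 ± 1.13 at 0 h. Aurka, a kinase reported to phosphorylate CPEB1, stood at -0.38 ± 0.15 (adjusted p 0.0508). In total RNA 2 of the 13 fell at 8 h, Cdk1 (-1.24 ± 0.27, adjusted p 0.0115) and Aurka (-0.67 ± 0.15, adjusted p 0.0162), beside 3.97% of all genes called. Neither passed without 0 h library A or B, and 1 of the 2 passed without 8 h library A or B. Beyond total RNA 4 rose and 4 fell, beside 21% of all genes called.

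**Figure D5:**
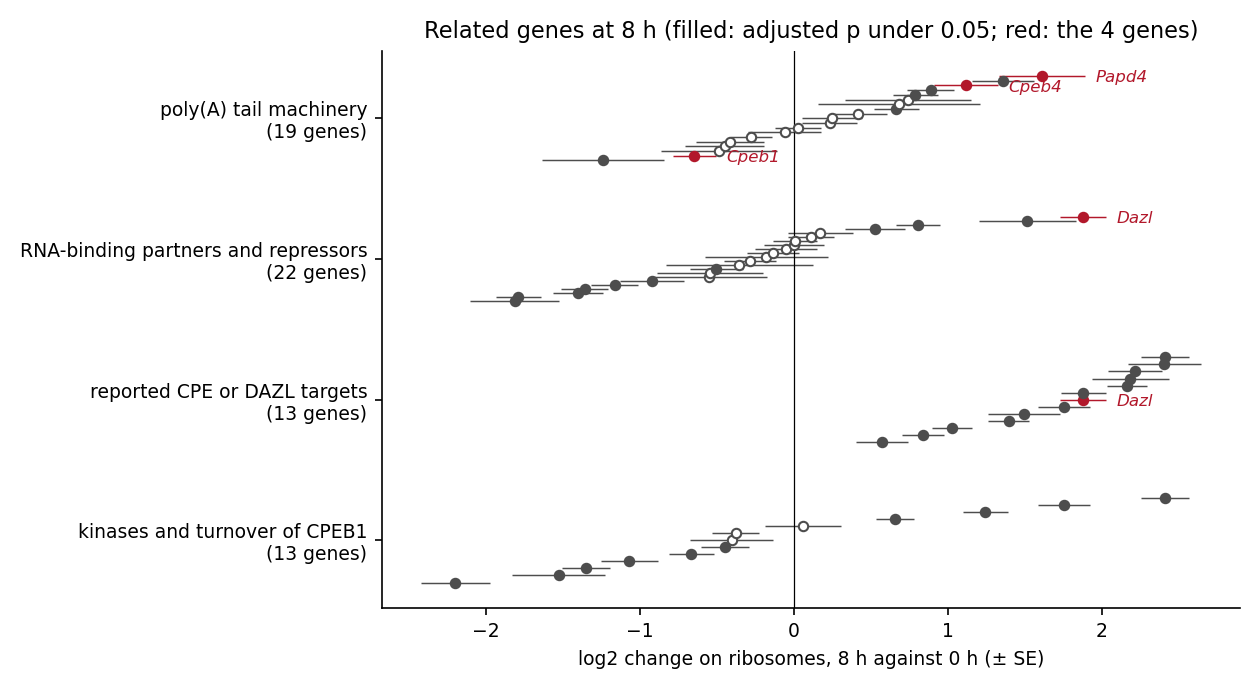
Log2 change on ribosomes at 8 h against 0 h (x axis, with limma standard errors) for each measured gene of 4 lists, ordered within a list by size, with filled symbols for an adjusted p under 0.05 and the 4 genes in red. All 13 reported CPE or DAZL targets lie right of 0, whereas the other lists extend to both sides.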

How the data were processed

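RNA from mouse oocytes was measured in 20 libraries. Per the submitters' processing notes, reads were handled with Trimmomatic 0.36, HISAT2 and HTSeq, among other tools that include edgeR and limma, and the genome was mm10. The deposited values are a signal, CPM scaled by a factor per library, in 1 table per kind of RNA, each normalized separately. The plan had assumed plain CPM, and the same test was kept. Every value was a whole multiple of its library's step within 0.01, which gave the depth. Nothing in the sources used here states poly(A) selection or strand. Total RNA samples are described as ribosome-bound too, but were grouped by title and design.

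Tests used log2(value + 1), a pseudocount of 1, so fold changes of low genes are understated. A filter of 1 in at least 2 libraries removed no gene. Models over all times used limma 3.58.1 (R 4.3.3) with a mean-variance trend, two-sided tests and Benjamini-Hochberg adjustment within each comparison, and were tested on simulated data. Differences between A and B were hardly correlated between groups, which does not settle whether the same letter marks the same oocytes. Neighbouring times in total RNA were planned and are not reported. The genes and lists were chosen with earlier results of these data known. Named genes were the 4, the 3 nearest profiles of each among genes with a mean of at least 20, leaving out unnamed gene models, and up to 3 per direction of each list with the largest called change at 8 h; Cpeb3, Papolg, Papola, Papd7, Pum2, Slbp and Aurka were named after their values were seen. Lengths, positions and 3′ UTRs came from GENCODE M21 transcripts on mm10, matched by gene ID for 4 of 4 genes. A further sequence is not reported here.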

Additional observations from a re-analysis of the deposited data

Results flagged for a closer look

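For 3 of the 4 genes the change from 0 h differed between ribosome-bound and total RNA, by the interaction test in limma with Benjamini-Hochberg adjustment over 7346 genes. The ribosome-bound change exceeded that in total RNA by a log2 of 0.77 at 4 h (adjusted p 0.0286), 1.499 at 6 h (adjusted p 2.94e-05) and 1.44 at 8 h (adjusted p 2.26e-05) for Dazl. For Papd4 the excess was 1.30 at 6 h (adjusted p 0.0281) and 1.29 at 8 h (adjusted p 0.0191). Both Papd4 calls were lost with pairing by letter (adjusted p 0.0958 and 0.0622), and that at 6 h also with only the 2 times compared (adjusted p 0.0709). For Cpeb4 it was 1.19 at 8 h (adjusted p 0.00198). In these comparisons both ribosome-bound libraries of the later time lay above both of 0 h.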

How the results depend on the processing

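The alternatives were pseudocounts of 0.5 and 5, no filter or a mean of at least 20, centring on library medians, no mean-variance trend, a fit of the 2 times compared alone, a replicate block, leaving out each library, and, added after seeing the data, pairing ribosome-bound and total RNA libraries by letter. The planned edgeR test was not run, because the deposited scaled CPM are not counts. The calls on ribosomes at 8 h for all 4 genes, and beyond total RNA for Dazl and Cpeb4, held throughout; without 1 library the changes on ribosomes at 8 h were 1.84 to 1.92 for Dazl, -0.72 to -0.57 for Cpeb1, 0.89 to 1.35 for Cpeb4 and 1.23 to 1.99 for Papd4. Papd4 beyond total RNA at 8 h was 0.91 to 1.67 without 1 library and 1.29 with pairing by letter (adjusted p 0.0622).

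Changes under the threshold turned sign without 1 library in these cases; the cause was not tested. On ribosomes they were Cpeb1 at 4 h against 0 h (-0.066 to 0.32) and 2 h (-0.31 to 0.081), Cpeb4 at 4 h (-0.20 to 0.26), Papd4 at 2 h (-0.17 to 0.59) and Papd4 at 8 h against 6 h (-0.019 to 0.0056; 0.0038 with median centring). In total RNA they were Dazl at 2 h (-0.048 to 0.16) and 6 h (-0.12 to 0.28), Cpeb1 at 2 h (-0.12 to 0.063), Cpeb4 at 6 h (-0.34 to 0.024) and 8 h (-0.18 to 0.026), and Papd4 at 2 h (-0.11 to 0.37). Beyond total RNA they were Cpeb4 at 4 h (-0.051 to 0.41) and Papd4 at 2 h (-0.30 to 0.46).

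Dazl on ribosomes at 4 h against 2 h did not pass in limma without the trend (adjusted p 0.356) or with centring on library medians (adjusted p 0.0565). Without the trend, Papd4 at 4 h (adjusted p 0.0695), Cpeb4 at 6 h (0.0937) and Dazl beyond total RNA at 4 h (0.105) did not pass either. With only 2 times they stood at 0.13, 0.0956 and 0.0685, and Papd4 beyond total RNA at 6 h at 0.0709. With pairing by letter, Papd4 (0.0958) at 6 h and Dazl (0.243) at 4 h beyond total RNA did not pass. Without the trend or with only 2 times, none of the reported targets rose and none of the CPEB1 kinase list fell in total RNA at 8 h. Counts of genes passing moved at early and late times. On ribosomes 111 genes at 2 h became 0 without the trend, 38 with only 2 times and 173 with a mean of at least 20, and 1186 at 4 h became 661 and 572 under the first pair. Without the 6 h library A or B, 2108 at 6 h became 1269 or 1267, and without any 1 library 111 at 2 h became 15 to 171. Between neighbouring times, 55 genes at 4 h against 2 h, 5 at 6 h against 4 h and 52 at 8 h against 6 h became 0 in each without the trend, 95, 19 and 92 with only 2 times, and 2 to 47, 0 to 1 and 3 to 28 without 1 library. In total RNA 16 at 6 h became 0 without the trend or without 0 h library A or B and 1 without 6 h library B, and 314 at 8 h became 164 with only 2 times and 158 without the trend and between 52 (0 h library A) and 414 (8 h library B) without 1 library. Beyond total RNA, 7 at 2 h became 1 to 23 without 1 library, 375 at 4 h became 154 without the trend, 162 with only 2 times and 151 to 426 without 1 library, and 860 at 6 h became 524 without 0 h total RNA library A. With pairing by letter, 375, 860 and 1543 beyond total RNA at 4, 6 and 8 h became 0, 305 and 944. Differences between A and B correlated at -0.107 to 0.115 between groups of 1 kind of RNA and at -0.084 to 0.036 between kinds. These values do not settle whether the same letter marks the same oocytes. With the replicate block, 3081 genes passed on ribosomes at 8 h in place of 3173. Under it Cpeb4 at 6 h did not pass (adjusted p 0.0506), nor did Dazl at 4 h against 2 h (adjusted p 0.0648).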
